A study of Mus musculus with 6 samples.

Results

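The synaptic vesicle release machinery comprises the SNARE proteins of vesicle and plasma membrane, the proteins that bind and prime them, the calcium sensors, and the proteins of the vesicle and the active zone. Its genes were collected here by symbol, as the VAMPs, syntaxins, SNAPs, syntaxin-binding proteins, synaptotagmins, complexins, synapsins, SV2 proteins, synaptophysin, RIMs, Munc13 proteins (Unc13) and Rab3 GTPases. Such names were carried by 72 of the 38926 gene symbols, and 68 had at least 10 reads over the 6 tables and form the set. Cplx3 had 2 reads in all, Cplx4 and Stx19 had 1 each, and Vamp7 was listed at 0 in every table, while its pseudogene symbol Vamp7-ps held 3006 reads. The symbol rule takes Stx8 and Stx18, which work in membrane traffic outside synapses, and Snap91, a clathrin assembly protein (AP180) that is no relative of Snap25; it leaves out Stxbp3, which the tables list under other symbols.

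The libraries come from dorsal root ganglia of lumbar levels 3, 4 and 5, on the side of the treated paw, of female C57BL/6 mice aged 8 to 10 weeks. The 3 vincristine samples come from wild-type animals given a cumulative 40 µg of vincristine into the paw, and the 3 vehicle samples from wild-type animals given vehicle. Each sample pools ganglia of 4 animals, so p-values measure the spread between pools. The files, unlike the labels, are named with a dose of 10 µg, and no source relates it to the 40 µg. Vincristine is a tubulin-binding chemotherapeutic for which peripheral neuropathy is a known side effect.

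At a synapse the vesicle SNARE (VAMP) zippers with syntaxin and SNAP-25 on the plasma membrane; Munc18 and Munc13 proteins prepare this complex, complexin holds it, and synaptotagmin triggers fusion when calcium enters. Sensory neurons make these proteins in the ganglion, and most of the protein works at their endings in the spinal cord and the skin. Paralogues of the same families serve granule release in blood cells and membrane traffic in every cell, so a ganglion sample holds transcripts of all of these.

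RefSeq promoter sequence of the build GRCm38.p6 was matched for 53 of the 68 genes. The stretches of 3 genes are shown because they stand for the neuronal SNAREs, the synaptic vesicle proteins and the granule paralogues described further on. Each runs 5′ to 3′ on the gene's own strand and ends before both the RefSeq and the GENCODE M21 start; capitals mark motif matches on either strand.
Vamp1, chr6:125215331-125215550, plus strand: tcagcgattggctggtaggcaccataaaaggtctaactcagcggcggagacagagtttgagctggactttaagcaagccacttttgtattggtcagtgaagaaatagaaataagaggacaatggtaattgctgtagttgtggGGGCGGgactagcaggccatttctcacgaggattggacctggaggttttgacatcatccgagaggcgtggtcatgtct
Syn1, chrX:20921005-20921168, minus strand: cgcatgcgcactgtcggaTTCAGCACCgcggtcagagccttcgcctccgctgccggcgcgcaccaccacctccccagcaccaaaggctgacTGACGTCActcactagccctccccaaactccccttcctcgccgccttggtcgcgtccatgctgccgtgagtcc
Stx11, chr10:12964299-12964509, minus strand: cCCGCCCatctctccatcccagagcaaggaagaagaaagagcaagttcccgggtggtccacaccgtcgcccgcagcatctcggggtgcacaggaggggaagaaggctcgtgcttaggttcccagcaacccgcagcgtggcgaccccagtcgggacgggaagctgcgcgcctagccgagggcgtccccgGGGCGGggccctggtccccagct

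Motifs were searched as exact letters on both strands in the 250 bases before the RefSeq start. The GC box GGGCGG was in 75.5% of the 53 matched genes (40 genes) and in 35.4% of the 27025 genes of the table. The cyclic AMP response element TGACGTCA was in 1.89% of the matched genes, only in Syn1, and in 1.77% of all genes. The sequence TTCAGCACC, the left portion of the RE1 element bound by the neuronal repressor REST, was also in Syn1 alone among the matched genes, a share of 1.89% against 0.348% of all genes. The other RE1 portion, GGACAGC, was in 3.77% of the matched genes (Stx5a and Syt6) against 6.14%, and the AP-1 motif TGACTCA in 3.77% (Syt2 and Syt8) against 5.16%. No motif overlaps another among the letters shown, and a match describes the letters only. The stretches shown leave out the searched bases nearest the RefSeq start. There Stx11 has a further GC box, 19 to 14 bases before that start, which is not among the letters shown.

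Libraries held 12374331 to 26346304 reads in genes, and counts scaled to a fixed library total (CPM, counts per 1e6 reads) use TMM-scaled library sizes. Vincristine replicate 1 was the shallowest library and stood apart on the first principal component, which held 56.4% of the variance. Sensory neuron markers were present in every library, with Avil at 174, 462 and 594 CPM in the vincristine libraries 1, 2 and 3, against 387, 561 and 507 CPM in the vehicle libraries 1, 2 and 3. Summed over 17 neuronal markers, levels were 4439, 9591 and 11767 CPM in the vincristine libraries, against 9319, 12468 and 12380 CPM in the vehicle libraries, so vincristine replicate 1 was the lowest of the 6. Summed over 11 neutrophil markers they were 7694, 2527 and 2892 CPM in the vincristine libraries, against 1407, 806 and 1028 CPM in the vehicle libraries. Spinal cord markers, which would mark attached root or cord tissue, summed to 306, 82.3 and 65.2 CPM in the vincristine libraries, against 87.8, 58.5 and 123.3 CPM in the vehicle libraries. Of the 11 listed, 9 were tested, and all 9 were highest in vincristine replicate 1. The motor neuron gene Mnx1, untested, had 0 reads in every library. Chat, also untested, had 6, 1 and 2 reads in the vincristine libraries, against 5, 2 and 5 in the vehicle libraries. Its CPM was highest in vincristine replicate 1, at 0.46. In such bulk samples fewer cells of a type and less RNA per cell cannot be told apart. All values below are given in that library order, and the log2 fold changes printed for single genes are also given without vincristine replicate 1 for most of these genes.

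Among the release genes the most abundant transcripts per length were those of Cplx1, Syt11, Snap25, Syt4 and Rab3a. Per kilobase of annotated exon, Cplx1 was at 133 ± 50.5 CPM in the vincristine libraries and 151 ± 22.0 CPM in the vehicle libraries (SD, n = 3 each). Syt11, a synaptotagmin whose C2 domains lack the usual calcium binding, was at 122 ± 50.5 and 144 ± 21.2 CPM per kilobase in vincristine and vehicle libraries. Snap25 followed with 83.7 ± 21.8 in vincristine and 111 ± 13.1 in vehicle libraries, Syt4 with 109 ± 47.9 and 96.1 ± 10.4, and Rab3a with 61.9 ± 21.0 and 86.6 ± 9.12 CPM per kilobase, in the same group order. In the vehicle libraries each of these 5 overlapped with its neighbour in the order of levels within 1 SD. The other end of the order was held by Syn3, a synapsin, at 0.401 ± 0.0356 and 0.356 ± 0.0761 CPM per kilobase, by Syt17 at 0.190 ± 0.0965 and 0.124 ± 0.0272, and by Syt8, which had 16 reads in all and was the only gene of the set too low to test. Levels per kilobase use the full annotated exon length, which understates genes that are annotated with long ends not used in this tissue.

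**Figure D1:**
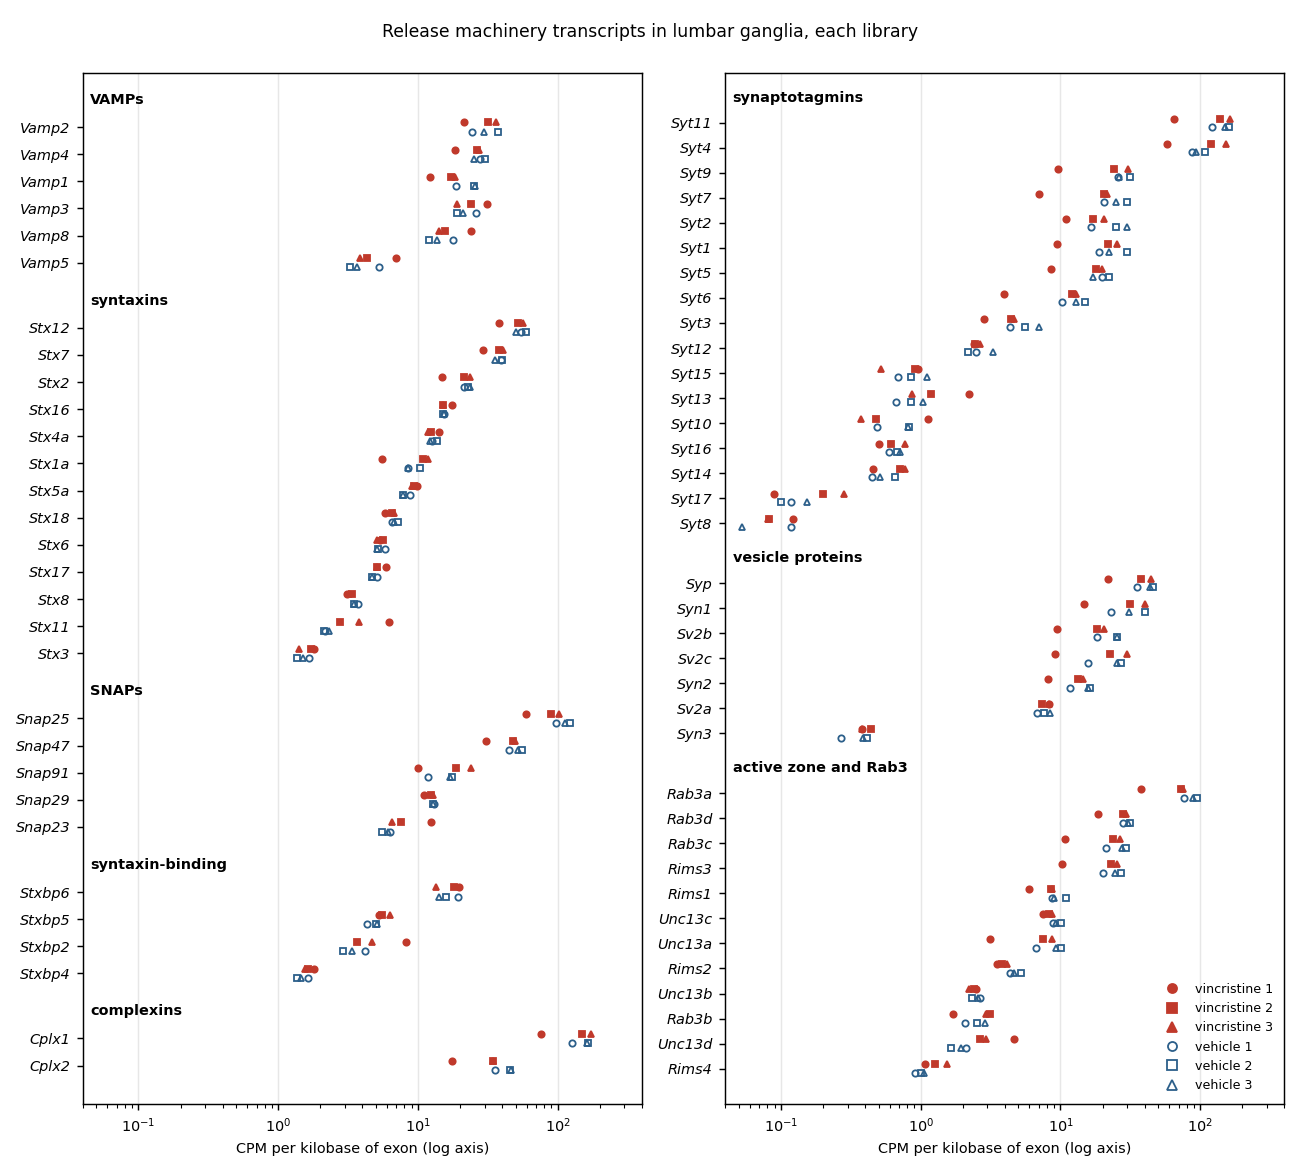
CPM per kilobase of exon (log axis) of 66 release machinery genes, ordered by vehicle level within each family; filled red symbols are the 3 vincristine libraries and open blue symbols the 3 vehicle libraries. Cplx1, Syt11, Snap25 and Syt4 lie near 100, Syt8 at the low end lacks its point at 0 for vehicle replicate 2, and the red circles of vincristine replicate 1 lie left of the others for many neuronal genes.

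The comparison of vincristine with vehicle asks which of these transcripts differ after the drug. None of the 67 tested genes passed an adjusted p of 0.05 over all 16706 genes with edgeR's quasi-likelihood test, which called 0.359% of all genes (0.293% higher and 0.0658% lower), and none passed with DESeq2, which called 2.81% (2.41% higher and 0.398% lower). At an unadjusted edgeR p under 0.05 there were 3 higher genes (Unc13d, Stx11 and Snap23) and 2 lower (Vamp1 and Rims2), against 8.10% and 3.27% of all genes, 11.4% in all. The 3 vincristine values all lay above the 3 vehicle values for 6 genes, against 11.5% of all genes, and all below for 7 genes, against 9.51%. The sum of 13 of 67 genes stands beside 21.0% of all genes, so the set is near the background. The smallest edgeR adjusted p of the set was 0.243, for Unc13d.

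What the design could resolve was limited. The median 95% interval of a log2 fold change in the set was 1.11 wide; 44 of the 67 intervals lay within a 2-fold change in either direction, and 62 included 0. Among the 29 isoforms known chiefly from synapses, 11 intervals reached a log2 fold change of -1 or lower. For 10 of these, all but Vamp1, the interval also held 0, so a halving was not separated from no change at this number of pools.

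**Figure D2:**
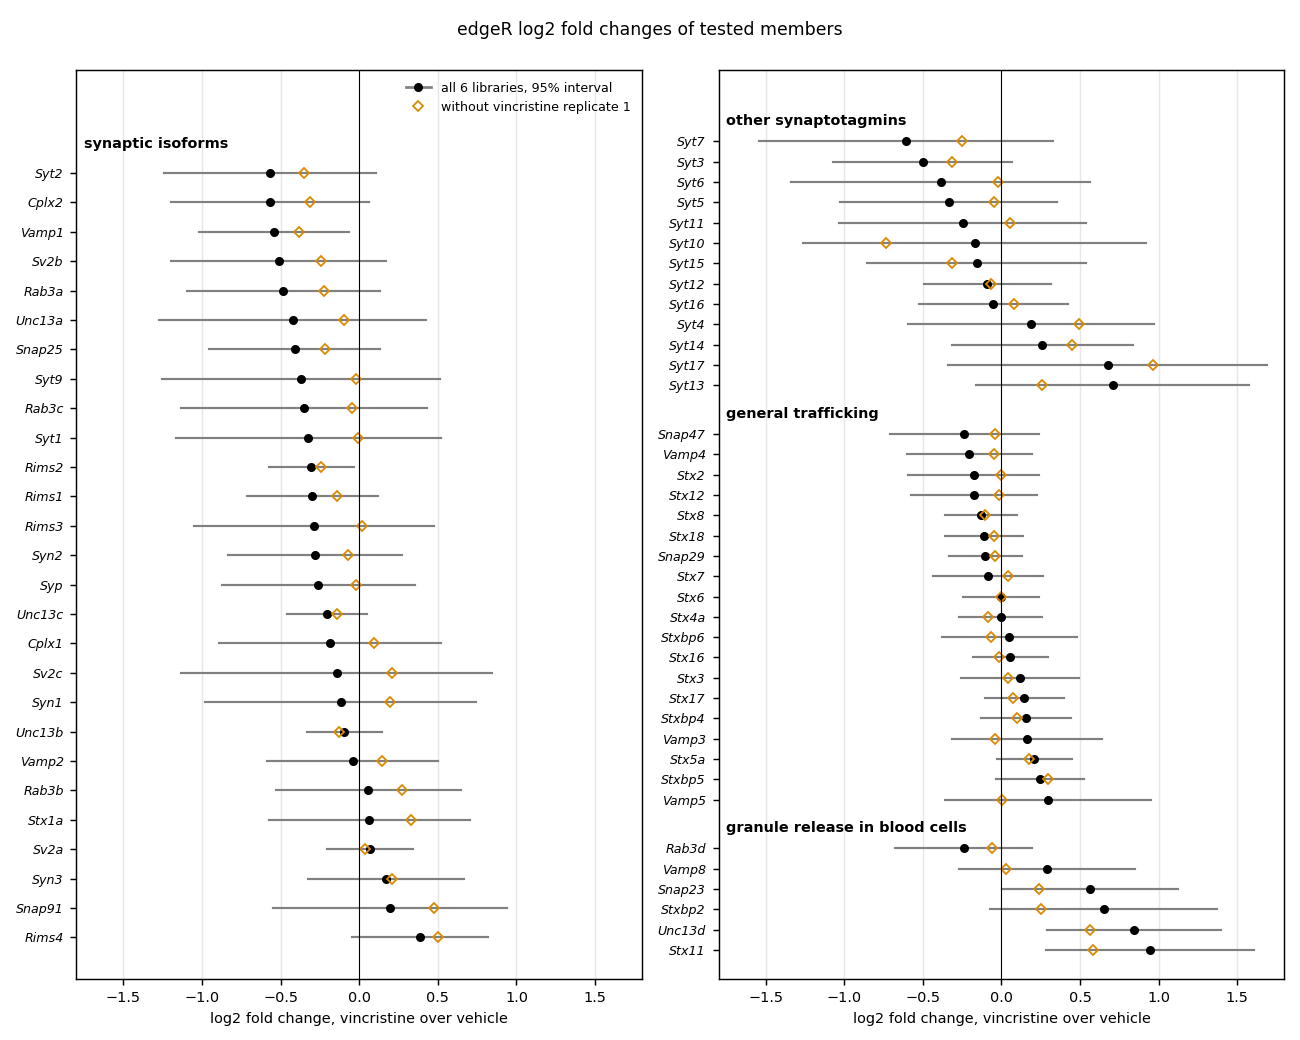
edgeR log2 fold changes of vincristine over vehicle for 65 tested genes, with 95% intervals (grey, black points) and the value without vincristine replicate 1 (open diamonds). Of the 27 synaptic isoforms drawn 21 points lie left of 0, and the granule paralogues Stx11 and Unc13d lie farthest right with intervals above 0.

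Of the 29 synaptic isoforms, 23 had a negative log2 fold change and 6 a positive one, with a median of -0.26 where all genes had -0.0033 and 50.7% of genes were below 0. Without vincristine replicate 1 the median of the synaptic isoforms was -0.02. In 25 of the 29 the lowest of the 6 libraries was vincristine replicate 1, against 36.8% of all genes. The median deviation from the vehicle mean over these 29 genes, on the log2(CPM + 0.5) scale, was -0.91, -0.11 and 0.10 in the vincristine libraries, against -0.25, 0.18 and 0.08 in the vehicle libraries. The same measure over the 17 neuronal markers was -1.45, -0.17 and 0.05 in the vincristine libraries, against -0.28, 0.15 and 0.09 in the vehicle libraries. Vincristine replicate 1 was thus the lowest library by both measures, and the part of neuronal content in the values of the synaptic isoforms was not tested.

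**Figure D3:**
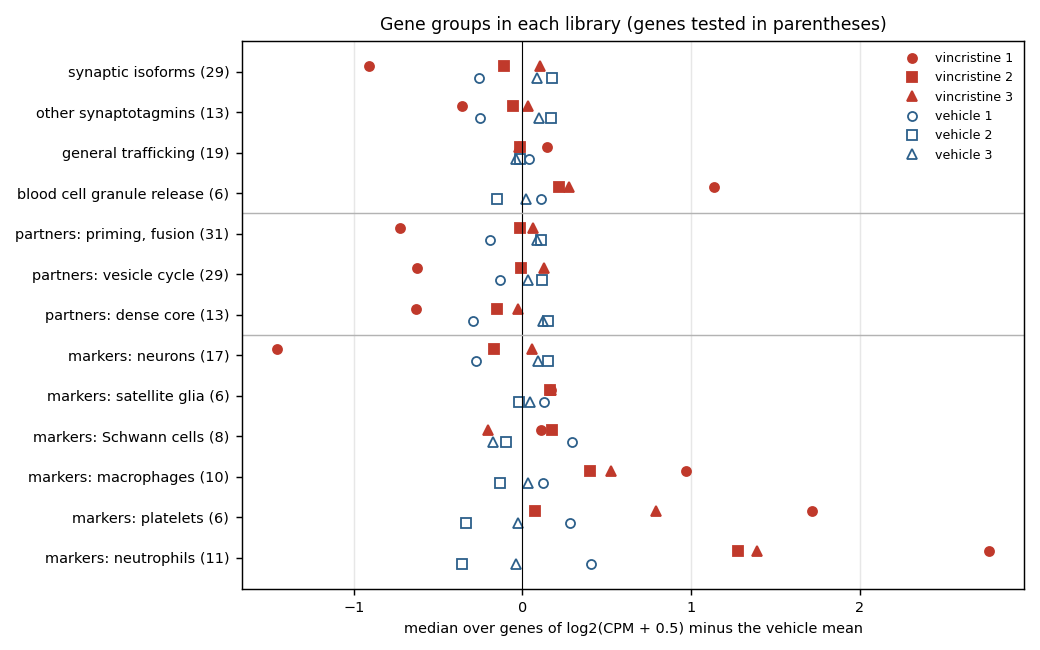
Median over the tested genes of each group of log2(CPM + 0.5) minus the vehicle mean, for each library. Synaptic isoforms, their partner genes and neuronal markers are lowest in vincristine replicate 1 (-0.91 and -1.45 for synaptic isoforms and neuronal markers), while granule paralogues and the macrophage, platelet and neutrophil markers are highest there (1.14 for granule paralogues and 2.77 for neutrophil markers).

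The neuronal SNAREs were measured deeply. Snap25, the plasma membrane SNARE cut by botulinum toxin A, was at 405, 606 and 694 CPM in the vincristine libraries, against 661, 838 and 769.7 CPM in the vehicle libraries, a log2 fold change of -0.41 ± 0.23 (SE), and of -0.22 without vincristine replicate 1. Vincristine replicate 3 lay within the vehicle range and the other vincristine libraries below it. Vamp1, the vesicle SNARE prominent in spinal cord and at neuromuscular synapses, was at 124, 174 and 188 CPM in the vincristine libraries, against 190.3, 256 and 262 CPM in the vehicle libraries. All vincristine values lay below all vehicle values, although vincristine replicate 3 and vehicle replicate 1 nearly met; the log2 fold change was -0.54 ± 0.20 with an edgeR adjusted p of 0.378, and -0.38 without vincristine replicate 1. Vamp2, its paralogue of most brain synapses, was at 81.1, 120.2 and 137 CPM in the vincristine libraries, against 93.3, 143 and 112 CPM in the vehicle libraries, with fully mixed groups and a log2 fold change of -0.04 ± 0.23, or 0.15 without vincristine replicate 1. Vamp1 had the higher mean CPM, at 162 in vincristine and 236 in vehicle libraries, against 113 and 116 for Vamp2 in that order. Per kilobase of annotated exon Vamp2 was the higher, at 29.6 CPM in vincristine and 30.5 in vehicle libraries. By that measure Vamp1 had 15.9 in vincristine and 23.2 in vehicle libraries. The reversal rests on annotated exon lengths of 10167 bases for Vamp1 and 3809 for Vamp2, so the more abundant transcript was not settled.

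Stx1a, a plasma membrane syntaxin of the synapse, was at 14.7, 29.2 and 31.6 CPM in the vincristine libraries, against 22.5, 27.5 and 22.6 CPM in the vehicle libraries (log2 0.06 ± 0.27, and 0.33 without vincristine replicate 1). Vincristine replicate 1 was lowest and the other vincristine libraries highest of the 6. The edgeR adjusted p was 0.952 for Stx1a and 0.963 for Vamp2.

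Vincristine replicate 1 was the lowest library for each of Syt1, Syt2, Cplx1 and Cplx2. Syt1, the sensor of fast release in forebrain neurons, was at 79.3, 182 and 209.9 CPM in the vincristine libraries, against 156, 249 and 185 CPM in the vehicle libraries (log2 -0.33 ± 0.36). Syt2, the faster sensor of hindbrain, spinal and neuromuscular synapses, was at 83.6, 131 and 155 CPM in the vincristine libraries, against 127, 192 and 229 CPM in the vehicle libraries (log2 -0.57 ± 0.29, edgeR adjusted p = 0.517). For Syt1 vincristine replicate 1 alone lay below the vehicle range, and for Syt2 the groups overlapped through vehicle replicate 1. Cplx1 was at 167, 325 and 379 CPM in the vincristine libraries, against 275, 361 and 356 CPM in the vehicle libraries (log2 -0.19 ± 0.30). Cplx2 was at 86.8, 169 and 169 CPM in the vincristine libraries, against 175, 226 and 228 CPM in the vehicle libraries (log2 -0.57 ± 0.27, edgeR adjusted p = 0.490). The Cplx2 groups did not overlap, with vincristine replicates 2 and 3 just below vehicle replicate 1, while those of Cplx1 did. Leaving out vincristine replicate 1 gave log2 fold changes of -0.0072 for Syt1, -0.35 for Syt2, 0.09 for Cplx1 and -0.31 for Cplx2.

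Of the 12 tested genes of priming, the active zone and Rab3, 9 had a negative and 3 a positive log2 fold change, without a call. Unc13a, or Munc13-1, the main priming factor, overlaps Colgalt1 on the opposite strand and was at 39.6, 94.4 and 110.2 CPM in the vincristine libraries, against 84.4, 127 and 117 CPM in the vehicle libraries (log2 -0.42 ± 0.36). Unc13c, or Munc13-3, known from the cerebellum, was at 65.6, 72.4 and 76.9 CPM in the vincristine libraries, against 77.9, 88.4 and 81.1 CPM in the vehicle libraries (log2 -0.20 ± 0.11). The Unc13a groups overlapped, and the Unc13c groups did not, though by a small margin. Rims1 and Rims2 encode the long RIM scaffolds that bind Rab3, Munc13 and calcium channels. Rims1 was at 43.7, 62.7 and 64.4 CPM in the vincristine libraries, against 63.7, 81.2 and 65.7 CPM in the vehicle libraries (log2 -0.30 ± 0.18). Rims2 was at 36.6, 39.9 and 43.3 CPM in the vincristine libraries, against 45.0, 54.5 and 48.6 CPM in the vehicle libraries (log2 -0.30 ± 0.12, edgeR adjusted p = 0.386). The Rims2 groups did not overlap, and its interval of -0.58 to -0.03 was among the narrower ones. Rims4, a short RIM without the Rab3-binding part, was the one synaptic isoform whose vincristine values all lay above the vehicle values, at 5.34, 6.32 and 7.59 CPM in the vincristine libraries, against 4.54, 5.0 and 5.25 CPM in the vehicle libraries (log2 0.39 ± 0.19, edgeR adjusted p = 0.492). With vincristine replicate 1 left out the log2 fold changes were -0.10 for Unc13a, -0.14 for Unc13c, -0.14 for Rims1, -0.25 for Rims2 and 0.50 for Rims4.

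Rab3a, the GTPase that brings vesicles to RIM, was at 83.9, 162 and 168 CPM in the vincristine libraries, against 170.3, 209.9 and 198 CPM in the vehicle libraries (log2 -0.48 ± 0.26, edgeR adjusted p = 0.545, and log2 -0.23 without vincristine replicate 1). Its groups did not overlap, with vincristine replicate 3 close to vehicle replicate 1, and it overlaps Mpv17l2 on the opposite strand. No source used here states whether the authors counted by strand, or how reads on overlapping genes were handled. Reads in such overlaps may have been left uncounted or given to the wrong gene. A neighbour of this kind was present for 18 genes of the set.

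None of the 7 vesicle protein genes was called, and 5 of them were lowest in vincristine replicate 1. Syn1, a synapsin that tethers vesicles in the reserve pool and carries the RE1 and cyclic AMP matches shown above, was at 48.5, 104 and 133 CPM in the vincristine libraries, against 76.4, 133 and 102 CPM in the vehicle libraries (log2 -0.12 ± 0.37). It overlaps Araf on the opposite strand. Syp, synaptophysin, which overlaps Gm14703, was at 114, 198 and 231 CPM in the vincristine libraries, against 185, 239 and 226 CPM in the vehicle libraries (log2 -0.26 ± 0.26). For both genes vincristine replicate 1 was the lowest library and the others were mixed. Sv2a, a vesicle glycoprotein that binds the drug levetiracetam, was at 38.6, 34.2 and 38.2 CPM in the vincristine libraries, against 31.7, 35.1 and 39.2 CPM in the vehicle libraries (log2 0.07 ± 0.12). It was one of the 4 synaptic isoforms that were not lowest in vincristine replicate 1. Its paralogue Sv2b had a log2 fold change of -0.51 ± 0.29 and Sv2c of -0.14 ± 0.42. The values without vincristine replicate 1 were 0.20 for Syn1, -0.02 for Syp, 0.04 for Sv2a, -0.24 for Sv2b and 0.21 for Sv2c.

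**Figure D4:**
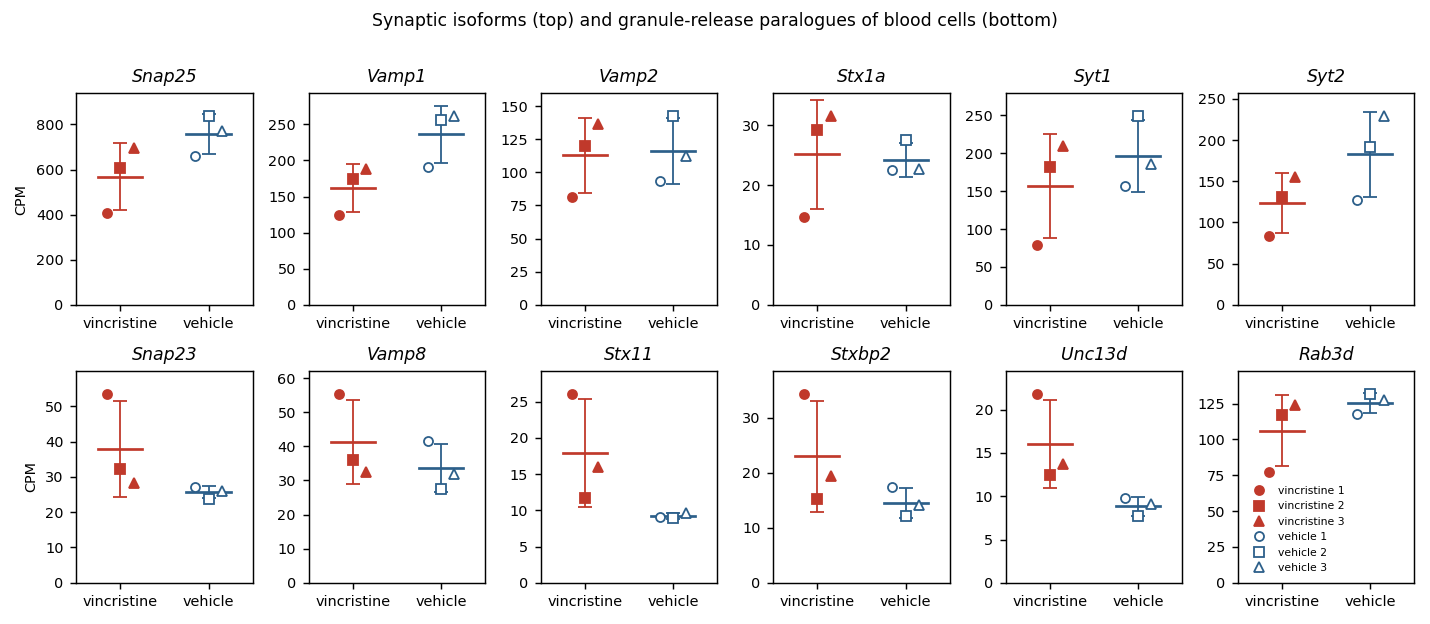
CPM in each library for 6 synaptic isoforms (top) and the 6 granule paralogues (bottom), vincristine left and vehicle right, with the mean (line) and SD (bars) of 3 libraries; axes start at 0. Vincristine replicate 1 (filled circle) is the lowest vincristine library in the top row and, apart from Rab3d, the highest in the bottom row.

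The 6 paralogues listed here as serving granule release in blood cells, a list drawn up with earlier results known, showed the other order. Their median log2 fold change was 0.61, with 5 positive and 1 negative, and 0.25 without vincristine replicate 1. In 5 of the 6 the highest library was vincristine replicate 1, against 32.8% of all genes. Unc13d, or Munc13-4, primes the granules of cytotoxic lymphocytes, neutrophils and platelets; its gene spans chr11:116062095-116077961 in GRCm38. It was at 21.8, 12.5 and 13.7 CPM in the vincristine libraries, against 9.80, 7.66 and 9.15 CPM in the vehicle libraries. All vincristine values lay above all vehicle values, and the log2 fold change was 0.84 ± 0.24 (edgeR adjusted p = 0.243, DESeq2 adjusted p = 0.0593) and 0.56 without vincristine replicate 1. Stx11, the syntaxin of the same pathway, was at 26.1, 11.6 and 16.0 CPM in the vincristine libraries, against 9.13, 8.91 and 9.65 CPM in the vehicle libraries. Again no values overlapped, vincristine replicate 1 was by far the highest, and the vehicle libraries lay close together. The log2 fold change was 0.95 ± 0.28 (edgeR adjusted p = 0.275, DESeq2 adjusted p = 0.0711), and 0.58 without vincristine replicate 1. With DESeq2 and vincristine replicate 2 left out, Stx11 at 1.17 (adjusted p = 0.0031) and Unc13d at 0.99 (adjusted p = 0.030) passed the threshold; that alternative was chosen after the data were seen and called 3.24% of all genes.

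Stxbp2, or Munc18-2, the partner of syntaxin-11, was at 34.3, 15.2 and 19.4 CPM in the vincristine libraries, against 17.5, 12.1 and 14.1 CPM in the vehicle libraries (log2 0.65 ± 0.31, edgeR adjusted p = 0.489). Vincristine replicate 2 lay inside the vehicle range, and the log2 fold change was 0.25 without vincristine replicate 1. Snap23, the widely expressed relative of SNAP-25, was at 53.5, 32.2 and 28.1 CPM in the vincristine libraries, against 27.1, 23.7 and 26.0 CPM in the vehicle libraries (log2 0.56 ± 0.24, edgeR adjusted p = 0.436), and its log2 fold change was 0.24 without vincristine replicate 1. Its groups did not overlap, but vincristine replicate 3 was close to vehicle replicate 1. Vamp8 of platelets and mast cells had a log2 fold change of 0.29 ± 0.24, and 0.03 without that library. Rab3d, a Rab3 of secretory granules, had the opposite sign at -0.24 ± 0.18, was lowest in vincristine replicate 1 and was at -0.06 without it. Mutations in the human genes for Munc13-4, syntaxin-11 and Munc18-2 cause familial hemophagocytic lymphohistiocytosis.

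The median deviation of the 6 paralogues was 1.14, 0.22 and 0.28 in the vincristine libraries, against 0.11, -0.15 and 0.02 in the vehicle libraries. Over the 11 neutrophil markers it was 2.77, 1.28 and 1.39 in the vincristine libraries, against 0.40, -0.36 and -0.04 in the vehicle libraries, and all 11 had a positive log2 fold change. Over 10 tested macrophage markers it was 0.97, 0.40 and 0.53 in the vincristine libraries, against 0.12, -0.14 and 0.03 in the vehicle libraries. Over 6 platelet markers it was 1.72, 0.08 and 0.79 in the vincristine libraries, against 0.28, -0.34 and -0.03 in the vehicle libraries. These 3 marker lists were highest in the same library as the paralogues, and so were the erythroid and spinal cord markers. Over 8 erythroid markers the median deviation was 2.26, 0.84 and 1.05 in the vincristine libraries, against 0.19, -0.25 and 0.11 in the vehicle libraries. Over 9 tested spinal cord markers it was 1.98, 0.10 and -0.17, against 1.6e-05, -0.59 and 0.56, in the same order. The part of these lists in the values of Unc13d, Stx11, Stxbp2 and Snap23 was not tested. Mast cell and B-lineage markers had mostly negative log2 fold changes. By the same measure, over 6 mast cell markers the median deviation was -0.37, -0.18 and -0.63 in the vincristine libraries, against -0.00016, 0.05 and 0.05 in the vehicle libraries, and 5 of the 6 had a negative log2 fold change. Over 6 tested B-lineage markers it was -2.38, -2.76 and -2.56 in the vincristine libraries, against -0.02, -0.47 and 0.55 in the vehicle libraries, with all 6 negative and 5 called lower by edgeR.

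The 19 SNAREs and syntaxin-binding proteins listed here under general membrane traffic had the narrowest range of the 4 groups. They had 9 positive and 10 negative log2 fold changes, a median of -0.0031 and a range of -0.24 to 0.30. Stx5a, the syntaxin of traffic between endoplasmic reticulum and Golgi, was at 57.1, 54.5 and 52.3 CPM in the vincristine libraries, against 51.3, 45.0 and 45.4 CPM in the vehicle libraries (log2 0.21 ± 0.10, edgeR adjusted p = 0.492). Stxbp5, or tomosyn, which competes with VAMP for the SNARE complex, was at 87.6, 90.8 and 104 CPM in the vincristine libraries, against 71.0, 83.0 and 83.7 CPM in the vehicle libraries (log2 0.25 ± 0.12, edgeR adjusted p = 0.499). For both, the vincristine values all lay above the vehicle values, by a narrow margin, and vincristine replicate 1 did not stand out. All vincristine values lay below the vehicle values for Snap29 (log2 -0.10 ± 0.10), which overlaps Pi4ka on the opposite strand, and for Stx8 (-0.13 ± 0.10), also narrowly. Stx12, the endosomal syntaxin with the highest level per length among syntaxins, was at 120.3, 167 and 179 CPM in the vincristine libraries, against 175, 189 and 161 CPM in the vehicle libraries (log2 -0.17 ± 0.17). Without vincristine replicate 1 the log2 fold changes were 0.18 for Stx5a, 0.30 for Stxbp5 and -0.02 for Stx12, and -0.04 for Snap29 and -0.10 for Stx8.

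The 13 tested synaptotagmins outside fast synaptic release had 9 negative and 4 positive log2 fold changes and a median of -0.16, or -0.02 without vincristine replicate 1. Syt11 was at 339, 717 and 844 CPM in the vincristine libraries, against 628, 839 and 788 CPM in the vehicle libraries (log2 -0.25 ± 0.33). Syt3, a high-affinity calcium sensor, was at 8.83, 13.8 and 14.5 CPM in the vincristine libraries, against 13.5, 17.5 and 21.8 CPM in the vehicle libraries (log2 -0.50 ± 0.24, edgeR adjusted p = 0.499). For Syt11 vincristine replicate 1 was the outlying low value, and for Syt3 the groups overlapped through vehicle replicate 1. Leaving that vincristine library out gave 0.05 for Syt11 and -0.32 for Syt3. Syt4, the dense-core vesicle synaptotagmin first found as an activity-induced gene, was chosen after its values were seen. It was at 223, 464 and 591 CPM in the vincristine libraries, against 342, 419.8 and 361 CPM in the vehicle libraries, so vincristine replicate 1 was the lowest and the other vincristine libraries the highest of the 6. Its log2 fold change was 0.19 ± 0.33, and 0.50 without vincristine replicate 1 (edgeR adjusted p = 0.181); it overlaps Gm26658 on the opposite strand.

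Leaving out vincristine replicate 1, edgeR called 2.05% of all genes (1.79% higher and 0.255% lower) and none of the 67, with a smallest adjusted p of 0.126 for Unc13d. In that comparison 9 genes of the set had a higher mean at an unadjusted p under 0.05, against 8.78% of all genes, and 2 a lower one, against 4.25%, or 13.0% in both directions. The 2 lower genes were Cplx2 and Vamp1. The 9 higher were Rims4, Snap91, Stx11, Stx1a, Stxbp5, Syt4, Syt14, Syt17 and Unc13d.

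Ratios of 2 isoforms of a subfamily within a library do not depend on library scaling and were computed for the 24 pairs of synaptic isoforms, a set of pairs chosen after the data were seen. In 9 of the 24 pairs the 3 vincristine ratios did not overlap the 3 vehicle ratios, 37.5%, against 30.5% of the 406 pairs of any synaptic isoforms. The Vamp1 to Vamp2 ratio of CPM was 1.53, 1.45 and 1.37 in the vincristine libraries, against 2.04, 1.79 and 2.33 in the vehicle libraries. The Cplx1 to Cplx2 ratio was 1.92, 1.93 and 2.24 in the vincristine libraries, against 1.57, 1.59 and 1.56 in the vehicle libraries. In both pairs vincristine replicate 1 lay with the other vincristine libraries rather than apart from them.

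The Rab3a to Rab3b ratio was 13.9, 14.6 and 16.3 in the vincristine libraries, against 23.2, 23.4 and 19.4 in the vehicle libraries. Of the 9 pairs 3 held Rims4, such as Rims1 to Rims4 at 8.19, 9.92 and 8.49 in the vincristine libraries, against 14.0, 16.2 and 12.5 in the vehicle libraries. The other non-overlapping pairs were Syn2 to Syn3, Sv2a to Sv2b and Rab3b to Rab3c. An exact two-sided permutation test of 3 against 3 libraries cannot go below 0.1, which these 9 pairs reached, with a Benjamini-Hochberg adjusted value of 0.267 over the 24 pairs; pairs share genes and are not independent.

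**Figure D5:**
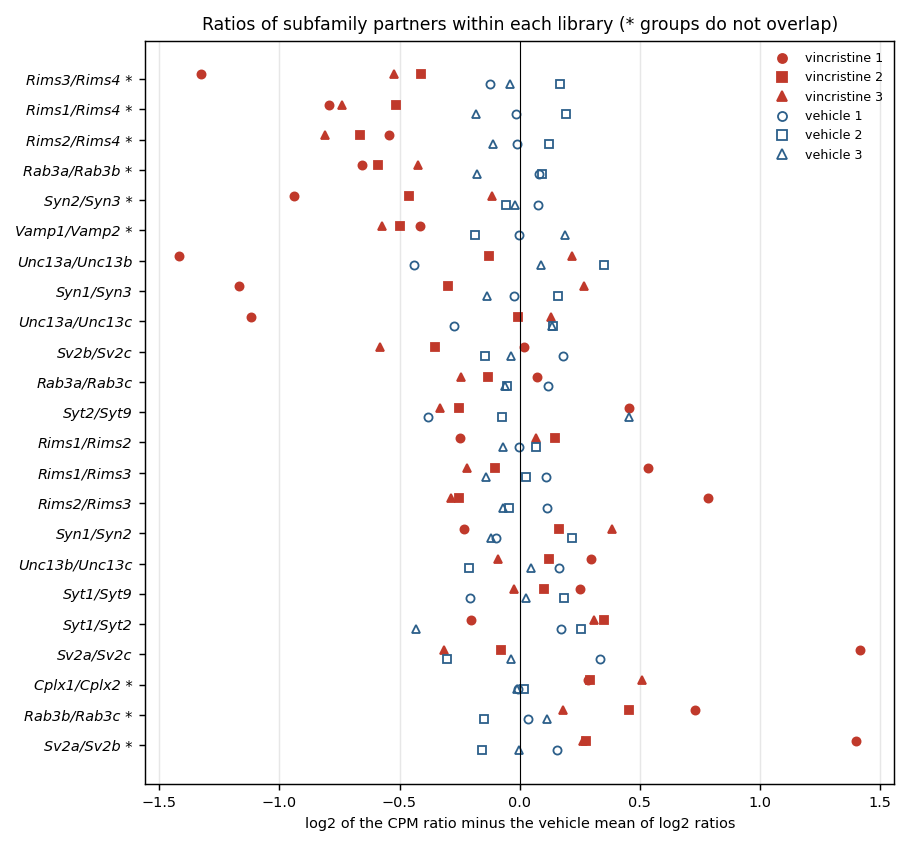
log2 of the CPM ratio of 23 isoform pairs in each library minus the vehicle mean, with stars at the 9 pairs whose groups do not overlap. The vincristine ratios of Vamp1 to Vamp2 and Cplx1 to Cplx2 lie together on one side of the vehicle ratios, whereas for Unc13a to Unc13b and Sv2a to Sv2c vincristine replicate 1 lies far from the rest.

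Other genes of exocytosis were followed in 3 lists of 79 symbols, on priming and fusion, the vesicle cycle and dense-core vesicles. Of the 73 tested, 25 had a positive and 48 a negative log2 fold change, with a median of -0.13, or 0.02 without vincristine replicate 1. edgeR called none of them. At an unadjusted edgeR p under 0.05, 6 of them were higher and 3 lower, against 8.10% and 3.27% of all genes, while DESeq2 called 2 in each direction, against 2.41% higher and 0.398% lower. Doc2b, a calcium sensor of spontaneous release, was at 2.79, 1.62 and 2.27 CPM in the vincristine libraries, against 0.504, 0.573 and 1.10 CPM in the vehicle libraries (log2 1.59 ± 0.38, edgeR adjusted p = 0.193, DESeq2 adjusted p = 0.026). All vincristine values lay above the vehicle values, at low levels in every library, and the log2 fold change was 1.42 without vincristine replicate 1.

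Synpr, synaptoporin, a synaptophysin relative, was at 147, 295 and 296 CPM in the vincristine libraries, against 517, 481 and 387 CPM in the vehicle libraries (log2 -0.91 ± 0.29, edgeR adjusted p = 0.305, DESeq2 adjusted p = 0.048). Rab27b, a GTPase of secretory granules, was at 51.2, 102 and 91.0 CPM in the vincristine libraries, against 140.2, 164 and 139 CPM in the vehicle libraries (log2 -0.86 ± 0.25, edgeR adjusted p = 0.263, DESeq2 adjusted p = 0.040). Neither gene's groups overlapped, and the 2 deeper vincristine libraries also lay below the vehicle libraries. Without vincristine replicate 1, edgeR called Rab27b (log2 -0.62, adjusted p = 0.037), and Synpr was at -0.64 and Rph3a at -0.50. Rph3a, rabphilin, the effector of Rab3 and Rab27, was at 71.9, 122 and 130.5 CPM in the vincristine libraries, against 137, 209 and 189 CPM in the vehicle libraries (log2 -0.72 ± 0.26, edgeR adjusted p = 0.362).

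Of the remaining partner genes named by smallest p, the priming list gave Rab27a (log2 0.35), Rab3il1 (0.57) and Cadps2 (-0.35), where Cadps2 is a priming factor of dense-core vesicles. The vesicle cycle list gave Dnm2 (log2 0.39), the widely expressed dynamin, Syngr2 (0.43), Scamp1 (-0.32) and Sncg (-0.49), the synuclein abundant in sensory neurons. The dense-core list had 3 positive and 10 negative log2 fold changes among 13 genes. It gave Vgf, a neuropeptide precursor induced by nerve growth factor, at 24.4, 49.1 and 74.8 CPM in the vincristine libraries, against 23.5, 35.0 and 29.6 CPM in the vehicle libraries (log2 0.76 ± 0.37, edgeR adjusted p = 0.505). It also gave Baiap3 (log2 0.89), Ptprn (0.40), Scg5 (-0.32), Pcsk2 (-0.55) and Chga (-0.42), of which Chga encodes chromogranin A and Pcsk2 a prohormone convertase. Without vincristine replicate 1 the log2 fold changes of these genes were 0.23 for Rab27a, 0.26 for Rab3il1, -0.19 for Cadps2, 0.26 for Dnm2, 0.28 for Syngr2, -0.16 for Scamp1 and -0.23 for Sncg. For the dense-core list they were 1.08 for Vgf, 0.10 for Baiap3, 0.71 for Ptprn, -0.19 for Scg5, -0.28 for Pcsk2 and -0.18 for Chga. Of the partner genes named Doc2b, Dnm2, Baiap3, Ptprn and Pcsk2 overlap a gene on the opposite strand.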

How the data were processed

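Total RNA of 6 pools of dorsal root ganglia was sequenced as single-end reads of 75 nucleotides, per the labels' protocols. The authors deposited raw counts of reads per gene symbol, 1 table per sample. The submitters' processing notes name STAR, SAMtools, HTSeq and the build mm10 (GRCm38), without versions or the strand setting of counting. Of tallied alignments, 24.8% fell outside genes in vincristine replicate 1, against 14.8% to 17.0% in the other libraries. The summary lines of the tables were left out.

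Differences between groups were tested on the raw counts in R 4.3.3 by edgeR 4.0.16 (filterByExpr, minimum count 10; TMM; robust glmQLFit; glmQLFTest, two-sided; group as the only term; Benjamini-Hochberg over 16706 genes). The SE is the log2 fold change divided by the square root of F. Alternatives were DESeq2 1.42.0, limma-voom (limma 3.58.1), other scaling, filters, thinned counts, a replicate block, leaving out each library and a threshold of 0.1. Both count tests were first tested on simulated data. Other scaling moved the median gene by under 0.008 on the log2 scale. Gene positions and exon lengths come from GENCODE M21, promoters from RefSeq (GRCm38.p6). No 2 libraries of a group were copies of each other.

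The genes and lists were chosen with earlier results of these data known. Values in every library are given for 14 core genes, the 6 genes with the smallest p in each direction and the gene with the highest level per kilobase of each family; of the partner lists, the 3 smallest p in each direction are named. A few genes of the set and its lists are counted but not reported here.

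Deviations from the group means correlated at 0.43, 0.25 and -0.09 between same-numbered samples 1, 2 and 3 of the groups. Between samples of unlike number the correlations ran from -0.49 to 0.49. These values do not settle whether the samples were paired. The numbers were not taken as pairs in the main test, and the replicate block was run as an alternative. Numbers come from the sample titles; the file of vehicle 3 is named with the number 4.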

Additional observations from a re-analysis of the deposited data

How the results depend on the processing

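Under the alternatives of edgeR, limma and DESeq2 run, 0 release genes were called in either direction, except by DESeq2 without vincristine replicate 2, chosen after seeing the data, with 2 higher. Over all genes the 49 higher calls of edgeR became 473 with DESeq2, 400 with limma-voom and sample quality weights, 83 without a low-count filter and 104 at a threshold of 0.1, and ranged from 0 to 303 with edgeR and from 177 to 522 with DESeq2 when 1 library was left out. The 11 lower calls became 78 with DESeq2, 7 with limma-voom, 76 with quality weights and 21 at a threshold of 0.1, and ranged from 0 to 43 and, with DESeq2, from 29 to 108. Partner genes called higher were 2 with DESeq2, 1 with quality weights, and 0 to 3 with a library left out; called lower they were 2 with DESeq2 and 0 to 2 with a library left out. The replicate block gave 230 higher and 31 lower calls over all genes, 1 partner gene higher, and 0 release genes with a smallest adjusted p of 0.0744 for Syt2. With the block 15 release genes had an unadjusted p under 0.05. The share of all genes at that threshold was not counted for the block, so the 15 cannot be set against a background.

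The 5 list medians moved by less than 1 SD under every alternative run. That SD is over a list's medians in the 3 vincristine libraries. Vincristine replicate 1 widens it, to 0.53 for synaptic isoforms and 0.51 for granule paralogues, so the bound is loose. Without that library the median went from -0.26 to -0.02 for synaptic isoforms and from 0.61 to 0.25 for granule paralogues. Of 575 values of named genes under alternatives 22 changed sign, none of them called. Quality weights gave 0.026 for Vamp2 and -0.0055 for Sv2a. With 1 library left out, in edgeR or DESeq2, the log2 fold change ranged over -0.16 to 0.33 for Stx1a, -0.23 to 0.15 for Vamp2, -0.45 to 0.092 for Cplx1, -0.47 to 0.20 for Syn1, -0.026 to 0.15 for Sv2a and -0.53 to 0.054 for Syt11. Low counts are least precise in the shallowest library, vincristine replicate 1, and 3 pools a group limit every interval. The cause of these shifts was not tested.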
